A study of Mus musculus with 5 samples.

Results

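The genes of the cytosolic translation machinery were taken from the deposited table by symbol: ribosomal proteins (Rpl, Rplp or Rps with a digit, or Rpsa, without the Rps6k kinases), factors whose symbols begin with Eif or Eef and a digit, and symbols that end in ars, the aminoacyl-tRNA synthetases. The rule found 39 of the 1457 genes listed. They were 9 large-subunit and 4 small-subunit ribosomal protein genes, 19 genes with an initiation factor symbol, 3 with an elongation factor symbol and 4 synthetases. By the same rule RefSeq's mouse annotation holds 178 protein-coding genes, 91 of them ribosomal, so most of the machinery was not analysed here. The label fits the symbols with 3 qualifications. Eef2k encodes a kinase that inhibits elongation, Eif5a is named for initiation but acts in elongation, and Gars encodes both the cytosolic and the mitochondrial glycyl-tRNA synthetase.

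Messenger RNA was sequenced from whole pancreas of female C57BL/6 mice aged 8 weeks. Wild-type mice received saline (1 library, no replicate) or caerulein (2 libraries, replicates 1 and 2), and mice of genotype miR-21-/- received caerulein (2 libraries, replicates 1 and 3). Caerulein, an analogue of cholecystokinin that induces acute pancreatitis when given repeatedly, was injected intraperitoneally at 50 µg/kg, and the pancreas was collected 24 h from the first dose. The labels give no saline-treated knockout. Whether the libraries come from separate mice is not stated, so p-values measure only the spread between these libraries. Whole tissue was used, and a lower share of a cell type and less RNA per cell cannot be told apart.

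Translation begins when initiation factors place the small ribosomal subunit with its initiator tRNA at the start codon, and the large subunit then joins. Elongation factors deliver aminoacyl-tRNAs, which the synthetases charge, and move the ribosome along the message. The acinar cells that make up most of the exocrine pancreas are known for one of the highest rates of protein synthesis in the body. Messages for ribosomal proteins and several translation factors begin with a pyrimidine tract at the cap, the TOP element, through which growth signals control their translation together.

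The windows around the transcription start of 6 members show C or T runs, where present, and other promoter letters. Rpl14, Rpl27a, Rps6 and Eef1a1 are shown as examples in which an uninterrupted run of C and T lies at the RefSeq start. Eif2s3x, with a run of 16 bases across its start, is not shown. Eif2s2 is shown because of all members it differed most between the knockout libraries, and Rpsa because its libraries stood in the opposite order. Each window runs from 100 bases before the start to 30 bases from it onward, in RefSeq's GRCm38.p6, a newer build than the one named for the deposited values. In coordinates they are chr9:120571417-120571546 (plus strand), chr7:109519095-109519224 (plus strand), chr4:86857338-86857467 (minus strand), chr9:78481695-78481824 (minus strand), chr2:154892877-154893006 (minus strand) and chr9:120127666-120127795 (plus strand). Capitals mark a run of at least 8 C or T bases that reaches within 10 bases of the start, and the motifs named below.
Rpl14: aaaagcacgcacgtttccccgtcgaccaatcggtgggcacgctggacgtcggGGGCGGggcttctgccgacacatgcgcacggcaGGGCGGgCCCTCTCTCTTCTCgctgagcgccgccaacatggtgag
Rpl27a: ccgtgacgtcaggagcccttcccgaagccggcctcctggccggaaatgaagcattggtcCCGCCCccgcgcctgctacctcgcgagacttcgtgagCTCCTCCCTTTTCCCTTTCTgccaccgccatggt
Rps6: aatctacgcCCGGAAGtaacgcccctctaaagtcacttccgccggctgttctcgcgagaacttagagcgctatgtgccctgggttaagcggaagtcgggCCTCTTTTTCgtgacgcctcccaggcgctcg
Eef1a1: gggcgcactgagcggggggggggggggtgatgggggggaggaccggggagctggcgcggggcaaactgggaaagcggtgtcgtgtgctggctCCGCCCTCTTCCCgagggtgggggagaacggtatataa
Eif2s2: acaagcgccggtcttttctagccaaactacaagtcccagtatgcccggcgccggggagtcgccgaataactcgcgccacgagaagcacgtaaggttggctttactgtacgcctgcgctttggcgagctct
Rpsa: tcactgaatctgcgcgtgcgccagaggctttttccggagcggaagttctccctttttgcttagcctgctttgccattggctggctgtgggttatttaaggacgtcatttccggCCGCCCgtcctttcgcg

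RefSeq start sites were available for 34 of the 39 members, 45 starts in all. The C or T run was at 4 of 10 ribosomal protein genes (Rpl14, Rpl22l1, Rpl27a and Rps6), at 3 of 18 initiation factor genes (Eif2s3x, Eif3m and Eif4e) and at Eef1a1. Runs shorter than 8 bases were not counted, so these are not counts of TOP elements. Counted by start, the run stood at 8 of the 45, against 13.7% of 32851 mouse starts. For ribosomal protein genes this was 4 of 10 starts and for initiation factors 3 of 27. Over the full windows of 250 bases before and 50 after the start, on both strands, CCGGAAG, the core of GABP and other ETS sites, stood at 11 of the 45 starts (8.86% of all starts). GGGCGG, the Sp1 core, stood at 32 (35.7%), AAGATGGC, a YY1 sequence, at 3 (2.75%) and TATAAA at 3 (13.6%). In the Eef1a1 window the reverse of GGGCGG overlaps the C or T run. The letters tatataa, which the search for TATAAA does not match, lie downstream of its RefSeq start. Whether the Eef1a1 run lies at the cap of its message was not tested. Matches describe letters only; no binding was measured here.

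The deposited table limits what a comparison with saline shows. Its rows are sorted by how far the mean of the wild-type caerulein libraries lies above saline, and 0 rows break that order by over 0.001 in log2. For each gene listed, one or more caerulein libraries lay 2.528-fold or further from saline. Neither the unit nor a normalization is stated, nor whether values are divided by transcript length, so levels are compared between libraries and not between genes. The values of the listed genes sum to 2818 in saline and to between 23255 and 38628 in the caerulein libraries. Scaling the libraries to equal sums (without the 20 most abundant genes) moved the median log2 difference of all tested genes from saline from 2.71 to 0.83 for wild-type and from 2.80 to 0.86 for knockout libraries. The lowest value listed is 0.01; 8 of the 39 members are listed at it in saline and none in a caerulein library. Wild-type replicate 1 resembled knockout replicate 3, and wild-type replicate 2 resembled knockout replicate 1, more than libraries of one genotype resembled each other. No batch is named for any of them. The level of miR-21 was not analysed here, so the genotype labels were not checked, and an exchange of labels, which would change every comparison of genotypes, was not tested. Values are given below as saline, then wild-type caerulein replicates 1 and 2, then knockout caerulein replicates 1 and 3.

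As listed, 37 of the 39 members were above saline in all 4 caerulein libraries, where 87.6% of the 1429 genes tested were. The exceptions were Eif4a2 and Gars. Both wild-type libraries were above saline for 37 members (89.2% of all tested genes), and both knockout libraries for 38 (94.2%). In limma's test on log2(value + 1) with Benjamini-Hochberg adjustment over all tested genes, 27 of 39 members were higher after caerulein in the wild type (57.3% of all tested genes) and 30 of 39 in the knockout (60.3%). The median log2 difference of the members was 2.98 in the wild type and 3.09 in the knockout, against 2.71 and 2.80 for all tested genes. Both comparisons use the same saline library, and the table is ordered by the first of them, so neither count is evidence about the members. With equal sums the members' medians were 0.21 and 0.25, below the 0.83 and 0.86 of all tested genes, and 15 of the 39 lay below saline in each genotype. The counts of members called were 4 higher and 1 lower in the wild type and 6 higher and 1 lower in the knockout with equal sums, and 0 in both with quantile normalization. Shares of all tested genes called under changed settings are not given here. Counts under them, also with a library omitted, therefore do not set the members apart from other genes. Without wild-type replicate 1, knockout replicate 1 or knockout replicate 3 the wild-type count was 10, 10 or 16. The knockout count was 3 without its replicate 1 and 11 without its replicate 3.

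**Figure D1:**
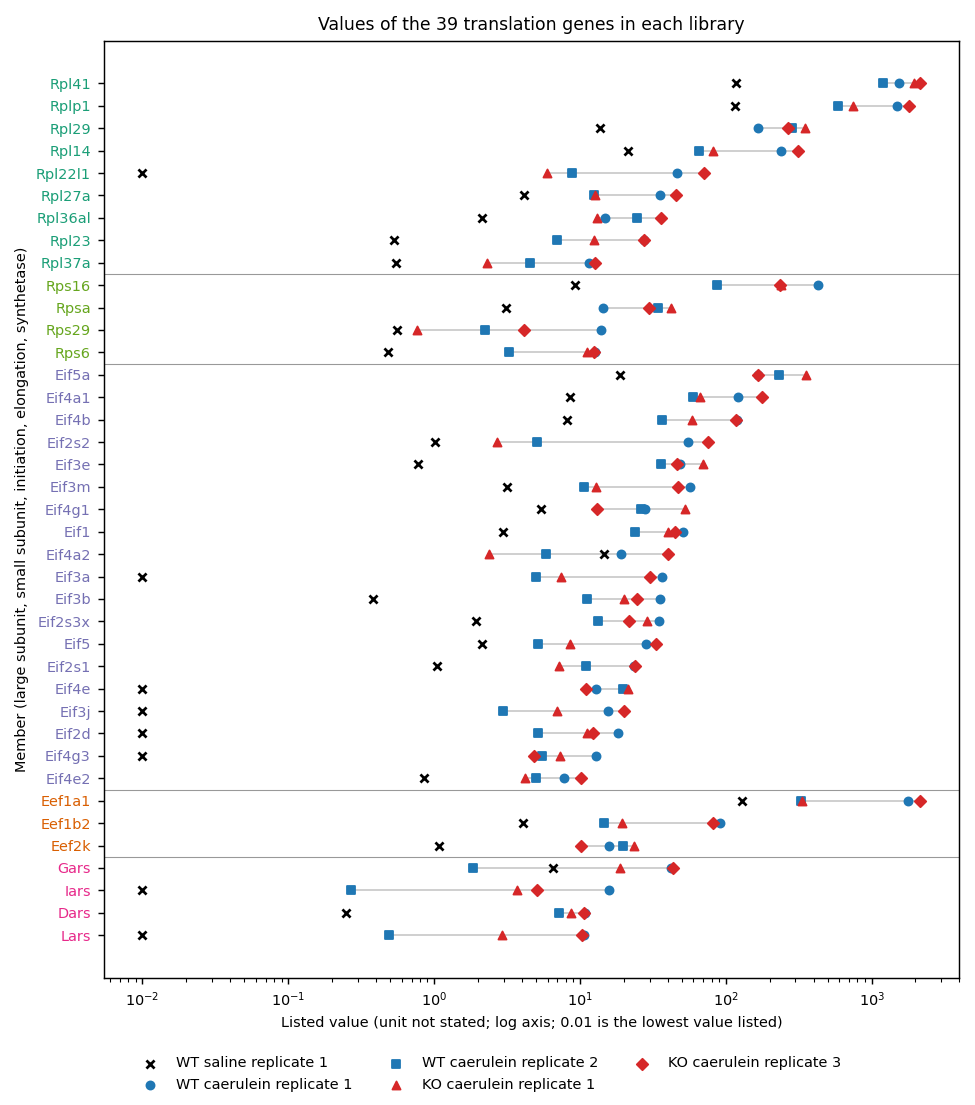
Listed value of each of the 39 members (log axis, unit not stated) in the 5 libraries, with a grey line over the 4 caerulein libraries and classes separated by horizontal lines. As listed, saline lies left of all caerulein libraries except for Eif4a2 and Gars; with libraries scaled to equal sums 15 members lie below saline in each genotype.

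Among the large-subunit genes, 6 of 9 passed against saline in the wild type and 8 of 9 in the knockout. The shares of all tested genes that were called higher were 57.3% and 60.3%. Rpl41, the smallest ribosomal protein, was 118.03 in saline, 1532.19 and 1202.12 in the wild type and 1965.14 and 2133.1 in the knockout. Rplp1, an acidic stalk protein that recruits elongation factors, was 115.31, then 1505.02 and 584.34, then 751.49 and 1818.96. As listed both were at least 5.07-fold above saline in every caerulein library, but with equal sums Rplp1 lay below saline in both genotypes. Rplp1 split within each genotype while Rpl41 did not: the highest caerulein value was 3.11 times the lowest for Rplp1 and 1.77 times for Rpl41.

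Rpl14 was 21.33 in saline, 239.33 and 65.89 in the wild type and 82.21 and 312.76 in the knockout. Rpl27a followed the same order of libraries at 4.12, then 35.31 and 12.55, then 12.7 and 45.49. Rpl23 was 0.53, then 27.32 and 6.92, then 12.57 and 27.66. For these genes and for Rplp1 wild-type replicate 1 and knockout replicate 3 were the high libraries, and the genotypes overlapped. Rpl37a had the same high libraries at 0.55, then 11.52 and 4.58, then 2.32 and 12.71. Rpl22l1, a paralogue of Rpl22, was listed at 0.01 in saline and then at 46.24 and 8.88, and at 5.99 and 71.33. The knockout libraries of Rpl22l1 lay on either side of both wild-type libraries.

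Another pair of large-subunit genes departed from this order. Rpl29 was 13.63 in saline, 166.15 and 286.69 in the wild type and 351.99 and 267.41 in the knockout, so wild-type replicate 1 was its lowest caerulein library. Rpl36al, a copy of Rpl36a that arose by retrotransposition, was 2.13, then 14.95 and 24.82, then 13.19 and 36.0. Short reads can be divided between ribosomal protein genes and their many pseudogenes, and the values of all 13 are uncertain to that extent.

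The 4 small-subunit genes did not share one pattern. For 2 of them, Rps6 and Rps29, wild-type replicate 1 and knockout replicate 3 were the highest caerulein libraries (40.1% of all tested genes). Rps16 was 9.22 in saline, 429.49 and 86.9 in the wild type and 237.76 and 234.82 in the knockout. The knockout libraries thus lay 1.01-fold apart, between wild-type libraries that were 4.94-fold apart. Rps6, the substrate of the S6 kinases, was 0.48, then 12.71 and 3.28, then 11.24 and 12.4, with wild-type replicate 2 alone low. Rpsa, which is also a laminin-binding protein, was 3.1, then 14.34 and 34.5, then 42.25 and 29.99, with wild-type replicate 1 the lowest. Rps29 was 0.56, then 13.84 and 2.22, then 0.76 and 4.13. Rps29 did not pass against saline in either genotype (limma adjusted p = 0.3651 in the wild type and 0.6859 in the knockout), and the other 3 passed in both. Higher calls covered 57.3% of all tested genes in the wild type and 60.3% in the knockout.

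Of the 19 initiation factor genes, 15 passed against saline in the wild type (57.3% of all tested genes) and 16 in the knockout (60.3%). eIF2 carries the initiator tRNA, and all 3 of its subunits were listed. Eif2s1, the alpha subunit that stress kinases phosphorylate, was 1.04 in saline, 23.35 and 11.05 in the wild type and 7.21 and 24.04 in the knockout. Eif2s2, the beta subunit, was 1.01, then 55.0 and 5.04, then 2.68 and 75.39. Eif2s3x, the gamma subunit encoded on the X chromosome, was 1.94, then 35.05 and 13.26, then 28.74 and 21.83. The subunits of this trimer did not stand in one order: knockout replicate 1 was the lowest caerulein library for the alpha and beta subunits and the second highest for gamma. For Eif2s2 wild-type replicate 1 was 10.9 times replicate 2, and knockout replicate 3 was 28.1 times replicate 1, the widest split of any member in the knockout.

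eIF3, the scaffold of the preinitiation complex, had 5 subunits listed. Eif3a was listed at 0.01 in saline, then at 36.67 and 5.0, and at 7.37 and 30.21. Eif3m was 3.15, then 56.96 and 10.71, then 12.88 and 46.76, and Eif3j was 0.01, then 15.52 and 2.99, then 7.0 and 20.03. These 3 subunits were highest in wild-type replicate 1 and knockout replicate 3. Eif3b was 0.38, then 35.64 and 11.22, then 19.99 and 24.54, with the same order and a narrower range. Eif3e was 0.77, then 48.39 and 36.09, then 69.71 and 46.19, and it was the one listed eIF3 subunit that was highest in knockout replicate 1. On the log2(value + 1) scale Eif3e differed from saline in the wild type by 4.60 (SE 1.08), and by 2.27 with equal sums. The table is ordered by the wild-type difference from saline, and saline has 1 library, so neither value is evidence about Eif3e.

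Other factors act at the scanning and start-codon steps. Eif1, which guards start-codon choice, was 2.98 in saline, 50.61 and 23.93 in the wild type and 40.3 and 44.55 in the knockout. Eif5, the GTPase activator of eIF2, was 2.14, then 28.39 and 5.18, then 8.6 and 33.4. Eif2d, which can deliver tRNA without GTP and acts in ribosome recycling, was 0.01, then 18.1 and 5.16, then 11.17 and 12.3. Wild-type replicate 2 was the lowest caerulein library for each of these factors.

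The eIF4 factors recognise and unwind the capped end of the message, and their paralogues differed. Eif4a1, the main helicase, was 8.6 in saline, 121.86 and 60.07 in the wild type and 66.74 and 176.9 in the knockout. Its paralogue Eif4a2 was 14.71, then 19.23 and 5.86, then 2.38 and 40.48. Eif4a2 was thus the one initiation factor gene whose saline value lay inside the range of both caerulein groups. Eif4b, which stimulates the helicase, was 8.17, then 118.78 and 36.41, then 58.64 and 116.95. The cap-binding protein gene Eif4e was listed at 0.01 in saline, then at 12.79 and 19.67, and at 21.45 and 10.96. Eif4e2, a paralogue that represses translation, was 0.85, then 7.72 and 5.02, then 4.18 and 10.24, so the cap-binding paralogues stood in opposite orders across the caerulein libraries.

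The scaffold gene Eif4g1 was 5.4 in saline, 27.82 and 26.08 in the wild type and 52.75 and 13.0 in the knockout. Its paralogue Eif4g3 was 0.01, then 12.96 and 5.48, then 7.33 and 4.88. Wild-type replicates agreed to within 1.07-fold for Eif4g1, while its knockout libraries lay 4.06-fold apart on either side. Eif5a, the hypusine-bearing factor that relieves stalled ribosomes, was 18.79, then 166.79 and 230.97, then 355.28 and 165.51. Its high libraries were knockout replicate 1 and wild-type replicate 2, the reverse of most members.

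Of the elongation factor genes, Eef1b2 and Eef2k passed against saline in both genotypes and Eef1a1 in neither (57.3% and 60.3% of all tested genes). Eef1a1, which carries aminoacyl-tRNA to the ribosome, was 128.67 in saline, 1775.9 and 329.69 in the wild type and 331.28 and 2165.18 in the knockout. Its exchange factor subunit gene Eef1b2 was 4.09, then 91.99 and 14.63, then 19.39 and 81.42. Both were high in wild-type replicate 1 and knockout replicate 3, and Eef1a1 was 5.39-fold and 6.54-fold apart within the wild type and the knockout. The kinase gene Eef2k, whose product slows elongation, was 1.08, then 15.78 and 19.8, then 23.35 and 10.23, in the opposite order.

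The 4 synthetase genes were uneven, and only Dars passed against saline (57.3% of all tested genes in the wild type and 60.3% in the knockout). Dars, for aspartate, was 0.25 in saline, 10.85 and 7.21 in the wild type and 8.7 and 10.63 in the knockout. Gars, for glycine, was 6.54, then 42.3 and 1.85, then 18.73 and 43.65. Gars was therefore below saline in one wild-type library and above it in the other 3. Iars, for isoleucine, was 0.01, then 15.8 and 0.27, then 3.69 and 5.06, and Lars, for leucine, 0.01, then 10.67 and 0.49, then 2.92 and 10.35. Gars, Iars and Lars were each lowest after caerulein in wild-type replicate 2.

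The comparison of knockout with wild type after caerulein asked whether levels differed in mice without miR-21; with no saline-treated knockout it cannot separate a changed response from a difference present before treatment. No member passed the test. After adjustment limma called 0 of 39 members, and 0.0% of the 1429 tested genes. Without adjustment 0 members and 7 genes had a p under 0.05. The knockout and wild-type libraries did not overlap for 1 of the 39 members, Rpl41, against 9.31% of all tested genes. With the caerulein libraries scaled by median ratio, a choice made after the data were seen, these were Rpl41, Rps6 and Eif4g3, 3 of 39 against 13.9%. As listed, Rpl41 had a log2 difference of 0.59 (SE 1.11; limma adjusted p = 0.9997), and the lower knockout library was 1.28 times the higher wild-type library. The smallest p belonged to Gars (log2 difference 1.42, SE 0.87; limma adjusted p = 0.9997); its knockout values of 18.73 and 43.65 lay inside and just above the wild-type range of 1.85 to 42.3. The next were Rps6 (0.74, SE 0.85), Eif3j (0.68, SE 0.87), Rpsa (0.65, SE 0.87) and Rps29 (-1.20, SE 1.75), each with a limma adjusted p = 0.9997.

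Around a member's log2 difference the 95% interval extended by 1.72 either way in the median, and for 17 of the 39 it lay within a 4-fold change in either direction. Smaller differences were not detectable with these libraries, and for the other members the interval also held changes beyond 4-fold. The widest interval extended by 3.51 either way. An exact permutation test of a single value in 2 libraries against 2 cannot give a two-sided p below 0.333. The members' median log2 difference was 0.20 (all tested genes 0.10), with 0.32 for the 13 ribosomal protein genes, 0.13 for initiation factors, 0.10 for elongation factors and 0.44 for synthetases. These medians rested on single libraries. Without wild-type replicate 1 the members' median was 0.90 (all tested genes 0.50), and without wild-type replicate 2 it was -0.52 (all -0.33). Without knockout replicate 1 it was 0.71 (all 0.01), and without knockout replicate 3 it was -0.14 (all 0.15).

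**Figure D2:**
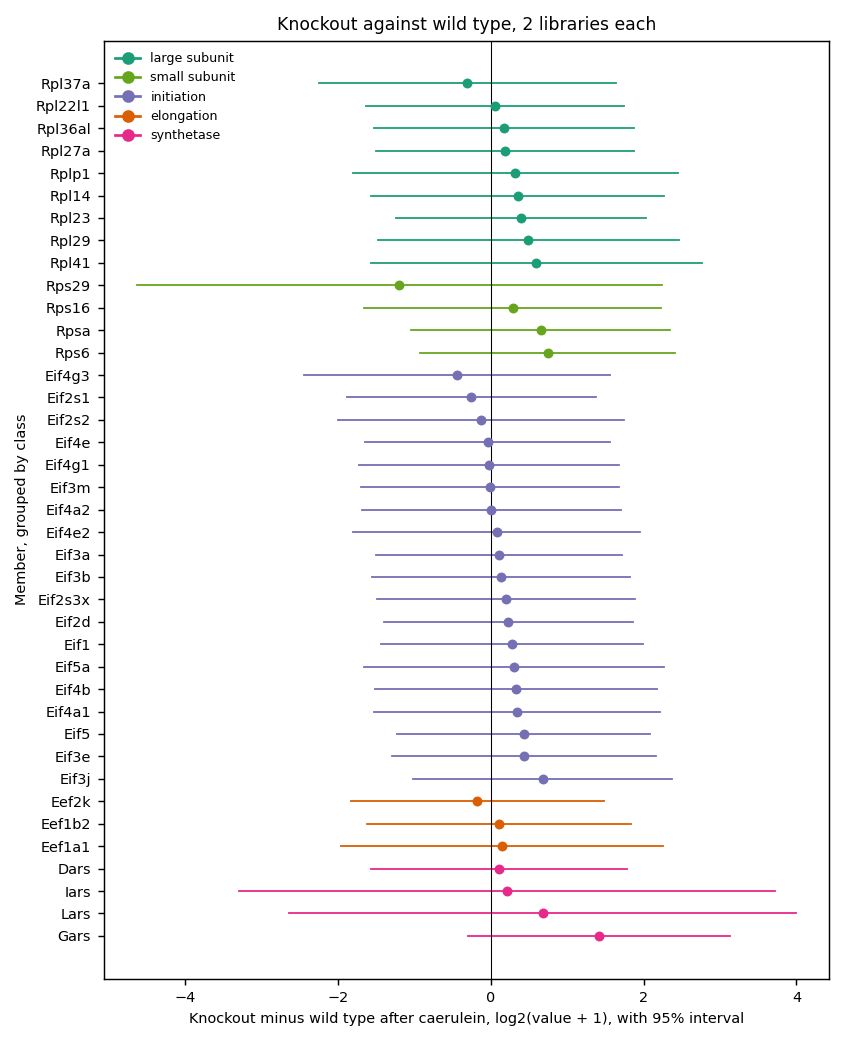
Knockout minus wild-type difference after caerulein on the log2(value + 1) scale for each member, as a point with its 95% interval from limma, coloured by class (2 libraries in each genotype). All 39 intervals include 0, and the differences run from -1.20 for Rps29 to 1.42 for Gars.

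Libraries of one genotype were further apart in these genes than some pairs that crossed genotypes. The median absolute log2 difference over the 39 members was 1.56 between the wild-type libraries and 1.18 between the knockout libraries. Wild-type replicate 1 lay 0.36 from knockout replicate 3, while wild-type replicate 2 lay 0.67 from knockout replicate 1. For all 1429 tested genes the same 4 values were 1.11, 0.81, 0.52 and 0.67. Spearman's rho over the 39 members, which share their libraries and are not replicates, was 0.92 and 0.90 for these 2 pairs and 0.69 and 0.66 within the wild type and the knockout. The other 2 pairs that cross genotypes were about as far apart as libraries of one genotype. Wild-type replicate 1 lay 1.06 from knockout replicate 1 (rho 0.70), and wild-type replicate 2 lay 1.42 from knockout replicate 3 (rho 0.71).

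Wild-type replicate 1 exceeded replicate 2 and knockout replicate 3 exceeded replicate 1 together for 28 of the 39 members, against 42.8% of all tested genes. The 2 highest caerulein values were those of wild-type replicate 1 and knockout replicate 3 for 27 members, against 40.1% of all tested genes. By class this held for 8 of 13 ribosomal protein genes, 13 of 19 initiation factors, 2 of 3 elongation factors and 4 of 4 synthetases. Another 5 members, Eif4e, Rpl29, Eef2k, Eif5a and Rpsa, were highest in wild-type replicate 2 and knockout replicate 1 (19.7% of all tested genes). In 5 members, Eif4g3, Eif3e, Rps16, Eif2s3x and Eif4g1, the highest values were in replicate 1 of each genotype (28.2%). Only Rpl41 had both its highest values in the knockout (4.76%), and no member had both in the wild type (4.55%). With the caerulein libraries scaled by median ratio, wild-type replicate 1 and knockout replicate 3 held the 2 highest values for 25 members (35.0% of all tested genes), and the joint order of 28 members was seen in 26 (38.3%). The absolute differences were then 1.005 and 1.37 within the wild type and the knockout, 0.56 and 0.43 for the 2 close pairs, and 0.94 and 1.21 for the other 2. These counts describe 4 libraries and were not tested.

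**Figure D3:**
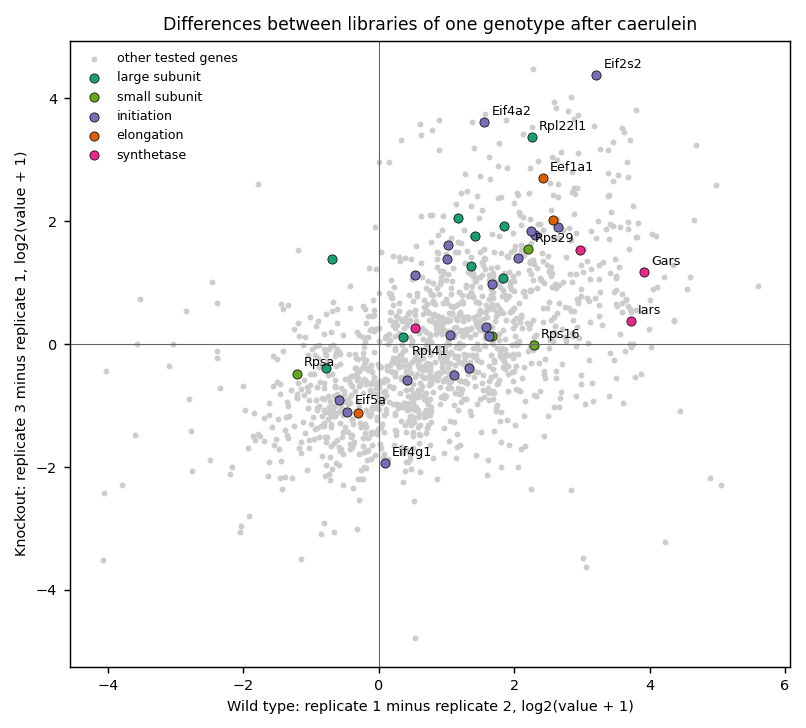
Each point is a gene: the log2(value + 1) difference of wild-type caerulein replicate 1 minus replicate 2 (horizontal) against knockout caerulein replicate 3 minus replicate 1 (vertical), with members coloured by class and other tested genes in grey. Of the 39 members 28 lie at the upper right, and 5, among them Rpsa and Eif5a, lie in the lower left.

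Class medians were high in these libraries for 4 of the 5 classes. On the log2(value + 1) scale the median of the 9 large-subunit genes was 5.56 and 4.69 in wild-type replicates 1 and 2 and 3.83 and 6.18 in knockout replicates 1 and 3. The 4 small-subunit genes differed, with medians of 3.92 and 3.62, then 4.52 and 4.35, highest in both knockout libraries. The median of the 19 initiation factors was 5.17 and 3.59, then 3.79 and 4.96, that of the 3 elongation factors was 6.54 and 4.38, then 4.61 and 6.36, and that of the 4 synthetases was 3.82 and 1.04, then 2.75 and 3.52. The median of all tested genes was 3.81 and 3.11, then 3.62 and 3.48, so the members stood above it by most in knockout replicate 3. The 39 members held 17.7% of the summed values in saline, 17.9% and 13.8% in the wild type and 14.3% and 24.0% in the knockout. Rpl41, Rplp1 and Eef1a1 carry most of these sums.

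A factor applied to a whole library leaves the ratio of 2 genes within it as it was, though quantile normalization does not, and several ratios of listed values moved widely. Eif4a1 over Eif4a2 was 0.585 in saline, 6.34 and 10.3 in the wild type, and 28.0 and 4.37 in the knockout, all above the saline ratio. Eef1b2 over Eef1a1, which act as partners, stayed between 0.032 and 0.059 in the 5 libraries. Not all partners kept their ratio. Eif2s2 over Eif2s3x, subunits of eIF2, was 0.521 in saline, 1.57 and 0.38 in the wild type, and 0.093 and 3.45 in the knockout. Eef1a1 over Rpl41 was 1.09 in saline, 1.16 and 1.02 in wild-type replicate 1 and knockout replicate 3, and 0.274 and 0.169 in wild-type replicate 2 and knockout replicate 1. Rplp1 over Rpl41 had the same order at 0.977, then 0.982 and 0.853, and 0.486 and 0.382. Eif5a over Eif5 was 8.78 in saline, 5.88 and 4.96 in the first 2 of these caerulein libraries and 44.6 and 41.3 in the others. Saline has 1 library, so no spread is known for its ratios.

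**Figure D4:**
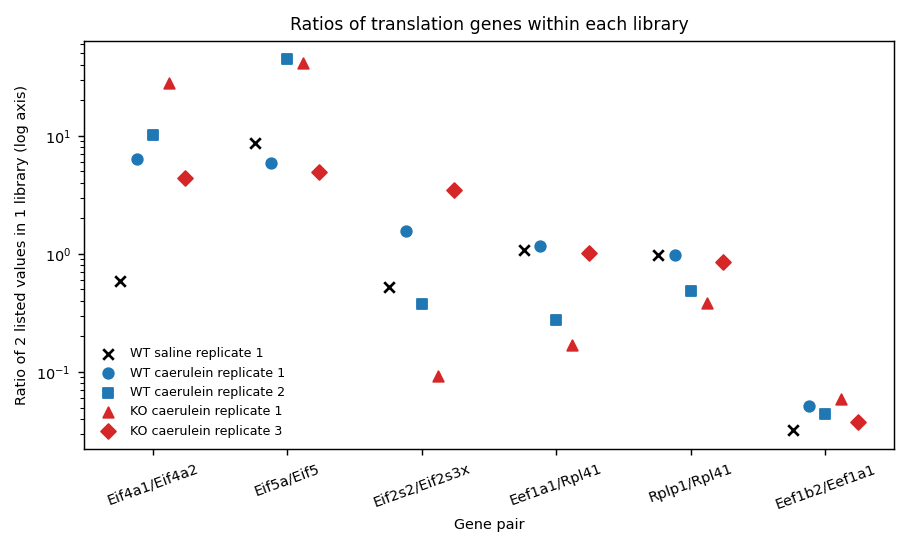
Ratio of the listed values of 2 members within each library (log axis) for 6 gene pairs, 1 marker per library. Eif4a1 over Eif4a2 is lowest in saline at 0.585, while for Eef1a1 over Rpl41 saline, at 1.09, lies between wild-type replicate 1 and knockout replicate 3.

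Other translation genes from lists written beside the symbol rule were sparse in the table. Against saline 57.3% of all tested genes were called higher in the wild type and 60.3% in the knockout. Counts in lists this short do not set a list apart from these shares. Of 14 genes for termination, recycling and mRNA binding, 5 were listed and 1 passed against saline in the wild type and 2 in the knockout. Pabpc1, the poly(A)-binding protein, was 6.65 in saline, 92.44 and 237.13 in the wild type and 373.11 and 132.67 in the knockout. Like Eif5a it was highest in knockout replicate 1 and wild-type replicate 2. It was the exception, since 4 of the 5 had their highest values in wild-type replicate 1 and knockout replicate 3 (40.1% of all tested genes). Abce1, a ribosome recycling ATPase, was 0.01, then 15.0 and 0.01, then 1.94 and 2.49. Eprs and Aimp1, members of the multisynthetase complex and 2 of 6 listed symbols, passed in the knockout and not in the wild type; this difference itself is the knockout comparison, in which 0 of the 2 passed. Aimp1 was 2.83, then 50.01 and 4.15, then 16.42 and 42.84. Of 39 ribosome biogenesis genes 6 were listed, and 5 passed in each genotype, with Npm1, a nucleolar chaperone, at 0.89, then 68.8 and 52.82, then 39.09 and 47.28. Of 22 genes of the signal recognition particle and translocon 4 were listed, of which 0 passed in the wild type and 2 in the knockout. Of 20 stress response and mTOR genes Ppp1r15a and Rheb were listed. Ppp1r15a, which directs dephosphorylation of eIF2 alpha, was 4.67, then 8.43 and 24.43, then 37.41 and 6.5. Its order was the reverse of that of Eif2s1. None of these lists had a member called between knockout and wild type.

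Markers of other cells moved with the libraries as well, and their part in these values was not tested. The summed values of the 3 listed stellate cell markers of 7 (Col3a1, Postn and Pdgfrb) were 0.72 in saline, 617.01 and 73.63 in the wild type and 112.02 and 310.57 in the knockout. Most of each caerulein sum was Col3a1, at 525.1 and 50.15, then 73.25 and 271.09, high in the same libraries as Eef1a1. Postn did not share its knockout split, at 32.83 and 32.67, and Pdgfrb was 5.94 and 6.81 there. The sums of 6 of 9 macrophage markers were 3.16, then 413.42 and 301.93, then 371.83 and 355.39. Laptm5 was the largest of them, at 167.2 and 207.34, then 213.33 and 180.11. It alone of the 6 was higher in wild-type replicate 2 than in replicate 1. Emr1 was 57.43 and 9.27 in the wild type and Mrc1 41.08 and 2.94. The 7 markers of dividing cells summed to 5.12, then 120.04 and 102.63, then 162.51 and 76.62. Of 16 acinar markers, which would define the pancreas, only Prss1 and Prss3 were listed. Prss1 was at 0.01 in every wild-type library, replicate 1 after caerulein included, and at 6.5 and 12.28 in the knockout. Prss3 was 1.9, then 384.9 and 6.97, then 150.18 and 289.84, again high in wild-type replicate 1 and knockout replicate 3. No neutrophil or endothelial marker was listed, and the lymphocyte, islet, ductal and erythroid lists had 1 or 2 members each.

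Sequence composition of the transcripts moved weakly with the split between libraries. Spearman's rho across the 39 members between GC content and the log2 difference was -0.26 for wild-type replicate 1 minus replicate 2 and -0.43 for knockout replicate 3 minus replicate 1, against -0.24 and -0.21 over 1340 tested genes. The members share their libraries, so no test was made, and the part of GC content in the split was not tested. Among genes picked after their values were seen, Eif4a2 (40.18% GC), Rpl22l1 (40.58%) and Eif2s2 (42.13%) had the 3 largest splits in the knockout, while Eif5a (54.98%), Eif4g1 (54.15%) and Rpl29 (60.47%) were among the members lower in knockout replicate 3 than in replicate 1. Eif4e (40.53%) and Eif3e (40.31%), which were lower in knockout replicate 3, and Rplp1 (57.31%), which was higher there, went against this order. Transcript length, with a median of 878 bases for ribosomal protein genes and 3405 for initiation factors, had a rho of 0.04 and -0.22.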

How the data were processed

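Poly(A) RNA was fragmented, reverse transcribed with random primers and sequenced, per the labels' protocols. Bowtie 0.12.2 and build mm8 are named in the submitters' processing notes; annotation, quantification, normalization and strand were not given in the sources used here. Deposited by the authors were files with 1 signal value per gene symbol, of unstated unit, for 1457 genes and 1 blank row. The low values showed no step of whole reads, so depth is unknown and no counting interval is given.

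Values were analysed as deposited on the log2(value + 1) scale, which understates changes at low values. The filter asked for 2 or more libraries at 1 or above and left 1429 genes, with all 39 members among them. One limma 3.58.1 model in R 4.3.3, with a mean per group over all 5 libraries and a trended, robust variance, gave 3 comparisons, with p-values adjusted over all tested genes by Benjamini-Hochberg at 0.05. Saline, with 1 library, is assumed to vary like the caerulein groups. The fit was tested on simulated data. Members, gene lists and tests were chosen with earlier results of these data known. The naming rule (extremes of each class, subunits of shared complexes, elongation factors, synthetases, genes without overlap or below saline, and the smallest p-values) was widened to all members; from other lists up to 4 genes, first in alphabetical order, could be named. A planned likeness measure over 4 libraries was not reported, since it needs at least 6. Symbols were matched to RefSeq for 39 of 39 members (Eif3j through an older name). Transcript length and GC content came from the longest coding transcript in a newer annotation. Descriptions used Python 3.11.15 and scipy 1.17.1.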

Additional observations from a re-analysis of the deposited data

How the results depend on the processing

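No paired analysis was possible because the caerulein groups share only replicate number 1. Between knockout and wild type 0 members were called under every setting run, and the members' median was 0.06 to 0.21 under the settings that kept all libraries. With a library omitted, 1 residual degree of freedom remains and the lone library takes its spread from the other group; the members' median then ranged from -0.52 to 0.90. Against saline the 27 members called in the wild type became 0 after quantile normalization, 5 under equal sums and 16 in a fit of 2 groups alone. Omitting single libraries gave 10 to 32. The 30 called in the knockout became 0 and 7 under the first 2 of these, and 3 to 31 when single libraries were omitted. Those 2 scalings, which raise saline towards the other libraries, moved the members' median log2 difference to 0.2137 and 0.2052 in the wild type and to 0.2212 and 0.2470 in the knockout. Other settings kept these counts within 1.5 times. Shares of all tested genes called under each setting are not given here, so the counts do not set the members apart from other genes.

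With those 2 scalings some called members changed sign without passing. With quantile normalization the wild-type log2 differences were -0.24 for Rps6, -0.0604 for Eif3m, -0.59 for Eif5a, -0.0783 for Rpl36al and -0.28 for Rpsa, and in the knockout -0.22 for Eif3m, -0.65 for Eif5a, -0.28 for Eif5, -1.11 for Rpl14 and -0.56 for Rpl27a. With equal sums they were -0.15 for Eef1b2, -0.34 for Eif3m, -0.0188 for Eif4a1, -0.32 for Eif4b, -0.14 for Rpl36al, -0.31 for Rplp1 and -0.45 for Rpsa in the wild type. In the knockout they were -0.15 for Eef1b2, -0.45 for Eif3m, -0.10 for Eif4b, -0.0722 for Rpl36al, -0.10 for Rplp1, -0.41 for Eif5, -0.53 for Rpl14 and -0.85 for Rpl27a. Eif4a2, at -0.42 and -0.41 against saline as listed, was -3.66 in the wild type and -3.71 in the knockout with equal sums. That scaling takes library totals as equal, whereas 1412 of the 1457 listed genes had a wild-type caerulein mean above saline. It raises the 1 saline library used in both comparisons, so these values are not evidence that Eif4a2 fell. Unknown depth limits every value near the lowest one listed.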
